A study of Mus musculus with 6 samples.

Results

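The 10 genes described here encode enzymes and a chaperone that modify collagen chains: the prolyl 4-hydroxylase subunits P4ha1, P4ha2 and P4ha3, the lysyl hydroxylases Plod1 and Plod2, the lysyl oxidases Lox, Loxl1, Loxl2 and Loxl3, and the collagen chaperone Serpinh1. They were chosen by symbol for this role, with earlier results of these data known. All 10 were found among the 36047 genes of the joined annotation and were among the 20094 genes that passed the filter on low counts. RNA sequencing was available for the infarct area of 3 C57BL6 mice given LGK-974 and 3 given the vehicle DMSO. All 6 mice were female and 12 weeks old and had undergone ischemia/reperfusion (I/R), a temporary closure of a coronary artery followed by reflow, and their hearts were taken 48 h later. LGK-974 is an inhibitor of Porcupine, the acyltransferase that cells need to secrete Wnt ligands, and was given by mouth, so its action was not limited to one cell lineage. An unoperated group was not analysed here, so each value compares LGK-974 with DMSO after the same injury.

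Collagen chains are modified in the endoplasmic reticulum before they are secreted. Prolyl 4-hydroxylases make the hydroxyproline that holds the triple helix together, lysyl hydroxylases make the hydroxylysine used for sugar attachment and for stable cross-links, and Serpinh1 (also called Hsp47) binds the folded helix until it leaves for the Golgi. Outside the cell, lysyl oxidases oxidise lysine and hydroxylysine side chains, after which neighbouring collagen and elastin molecules become cross-linked. In the infarcted heart these genes are mainly active in fibroblasts and myofibroblasts, which build the scar that replaces lost cardiomyocytes.

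The libraries held 41579787 to 80398211 estimated counts each. One library, DMSO replicate 1, stood apart from the others. Its correlation of log2 expression with the other libraries was 0.878 to 0.944, against 0.961 to 0.987 among the other pairs. Its median over 1780 odorant, vomeronasal and taste receptor genes was 29.8 counts per kb, against 0.818 to 10.1 in the other 5 libraries. Fold changes of the 10 genes and several other values are given with and without it. Its part in each result beyond those values was not tested.

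Of the 10 genes, 9 were higher in every LGK-974 library than in every DMSO library, and 0 were lower in this sense. Among all tested genes, 10.7% were higher without overlap. With counts scaled from the deposited TPM (transcripts relative to length and library) the number was 7 in place of 9, with Plod1 and Loxl3 lost. It was also 7 with the level of receptor genes subtracted, with Plod1 and Plod2 lost. The share of all genes without overlap is not given for these alternatives, so their counts have no reference. P4ha2 was lower without overlap in both of these alternatives, and in some of the others. With edgeR's quasi-likelihood test, 8 of the 10 had an unadjusted p under 0.05, all of them higher with LGK-974, against 6.26% of all tested genes. After Benjamini-Hochberg adjustment over all genes 0 of the 10 passed the threshold of 0.05, as did 0 of the 20094 genes tested, of which 2699 had an unadjusted p under 0.05. DESeq2 gave adjusted p-values under 0.05 to 3 of the 10 (P4ha3, Lox and Loxl2) and to 289 genes in all (1.23% of those to which it gave an adjusted p, with 0.853% called higher). The median log2 fold change over the 10 was 0.85, beside -0.13 over all tested genes. Without DMSO replicate 1 it was 0.67, again with 8 of the 10 under an unadjusted p of 0.05, where 7.12% of all genes were so and higher. The same 5 libraries left 9 of the 10 higher without overlap, beside 16.9% of all genes. Leaving out LGK-974 replicate 3 gave 4 in place of 8, beside 3.23% of all genes, and a median of 0.63.

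**Figure D1:**
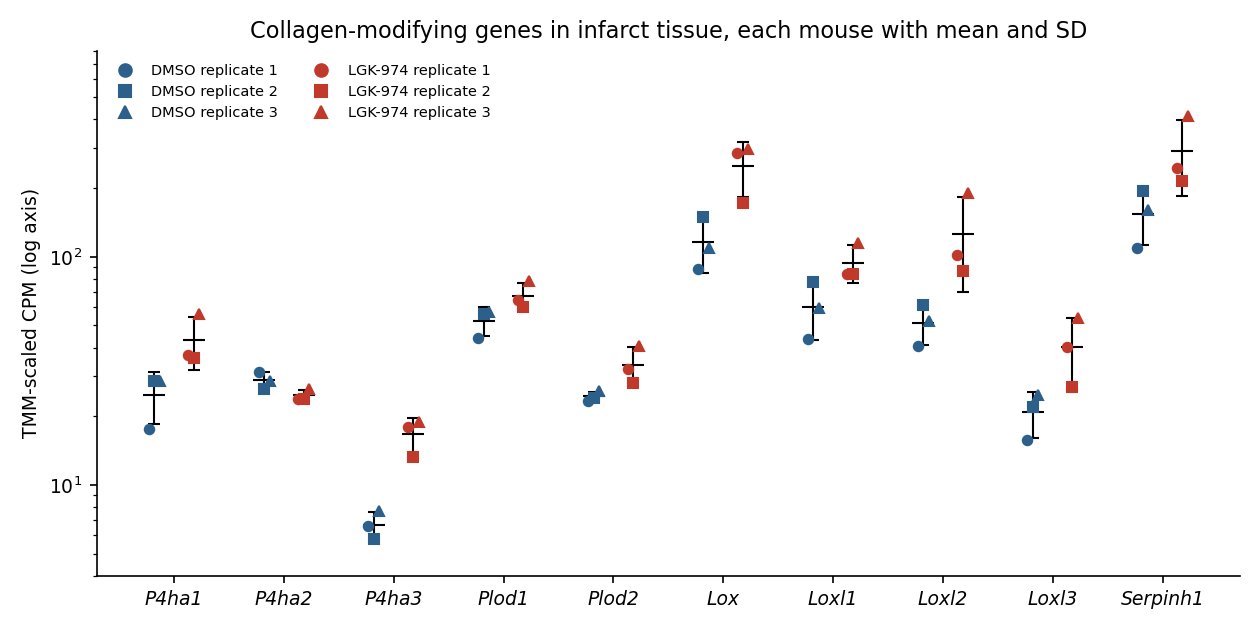
Normalised read counts relative to library size (CPM, log axis) of the 10 genes in each of the 6 libraries, with the mean and SD of the 3 LGK-974 and the 3 DMSO mice. The groups are apart for 9 genes and overlap for P4ha2.

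The plot of CPM by library also shows that the mice kept a similar order from gene to gene. LGK-974 replicate 3 had the highest value of its group for 10 of the 10 genes, and LGK-974 replicate 2 had the lowest for 9, P4ha2 being the exception. DMSO replicate 1 was the lowest of its group for 8, the exceptions being P4ha2 and P4ha3. The 10 genes are therefore not independent readings of the treatment, since they share the same 6 mice. CPM values here are scaled by TMM factors, which correct for differences in the makeup of the libraries, and suit comparisons of one gene between mice.

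Among the prolyl 4-hydroxylase subunits, P4ha3 had the clearest difference of the 10 genes. The protein is one of the alternative catalytic α subunits, each of which pairs with the β subunit P4hb (protein disulfide isomerase). P4ha3 (chr7:100285520-100319699 in GRCm38, plus strand) was at 17.9, 13.3 and 18.9 CPM in the LGK-974 mice and at 6.61, 5.77 and 7.66 CPM in the DMSO mice. The lowest LGK-974 library lay 1.73 times above the highest DMSO library. The means were 16.7 ± 3.0 CPM for LGK-974 and 6.68 ± 0.948 CPM for DMSO (SD, n = 3 each), or 1.32 higher on the log2 scale, with an SE of 0.206 and a 95% interval of 0.84 to 1.80. With edgeR its p of 0.00024 ranked 8 among the 20094 genes, and its adjusted p was 0.368. DESeq2 gave an adjusted p of 0.00144. P4ha3 was also the least expressed of the 10, with 263 to 1520 estimated counts per library, and in DMSO replicate 1 the level of the receptor genes, scaled to its length, came to 25.2% of its counts. With that level subtracted in every library the log2 fold change was 1.33, and without DMSO replicate 1 it was 1.33 with an unadjusted p of 0.00032 in edgeR.

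P4ha1, the α subunit that most cells use, lies on chromosome 10 (chr10:59323296-59373304, plus strand). It was at 37.2, 36.2 and 55.9 CPM with LGK-974 and at 17.6, 28.4 and 28.6 CPM with DMSO. Every LGK-974 library was above every DMSO library, and within each group one mouse was set apart, upward in LGK-974 replicate 3 and downward in DMSO replicate 1. The log2 fold change was 0.79 (SE 0.255, 95% interval 0.20 to 1.38, unadjusted p 0.0152, adjusted p 0.368 with edgeR). It was 0.61 without DMSO replicate 1. The P4ha1 transcripts carry one or the other of a pair of coding exons, numbered 9 in each transcript and of equal length. They are shown because they tell the forms apart, with the bases that differ in capitals. The forms also differ in total length, and the shares below are those of whole transcripts.
First exon, chr10:59354340-59354410: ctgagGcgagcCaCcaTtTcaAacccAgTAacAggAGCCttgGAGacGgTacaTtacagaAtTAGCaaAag
Second exon, chr10:59355350-59355420: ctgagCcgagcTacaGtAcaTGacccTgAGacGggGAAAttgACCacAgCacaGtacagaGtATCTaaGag
Of the 71 bases of each exon 45 were identical. Transcripts with the second exon held 63.8%, 65.4% and 71.0% of the counts of transcripts with either exon in the LGK-974 mice and 60.9%, 71.7% and 62.2% in the DMSO mice. These groups overlapped, and the means of 66.8% ± 3.78 and 64.9% ± 5.93 (SD, n = 3 each) differed by less than the spread between mice (two-sided exact permutation p 0.6).

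P4ha2, the other widely expressed α subunit (chr11:54100095-54131665, plus strand), was the exception among the 10. Its summed counts were at 23.8, 23.9 and 26.3 CPM with LGK-974 and at 31.3, 26.3 and 28.5 CPM with DMSO. LGK-974 replicate 3 and DMSO replicate 2 were nearly equal, at 26.34 and 26.33 CPM, so the groups just overlapped. The log2 fold change was -0.22 with an SE of 0.140 and a 95% interval of -0.54 to 0.11 (edgeR, unadjusted p 0.158, adjusted p 0.455).

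This sum over transcripts hid opposite differences in its components, which were examined after the values of P4ha2 had been seen. The annotation lists 15 P4ha2 transcripts, of which some are marked as protein-coding and others as retained introns or as targets of nonsense-mediated decay (NMD), the pathway that removes mRNAs with an early stop codon. Protein-coding transcripts were at 10.1, 10.5 and 15.5 CPM with LGK-974 and at 5.31, 8.54 and 7.98 CPM with DMSO. The other transcripts were at 13.7, 13.4 and 10.9 CPM with LGK-974 and at 26.0, 17.8 and 20.5 CPM with DMSO. Neither class overlapped between the groups, and they differed in opposite directions. The share of P4ha2 counts on protein-coding transcripts was 48.3% ± 9.11 in the LGK-974 mice and 25.8% ± 7.96 in the DMSO mice (SD, n = 3 per group), with an exact permutation p of 0.1, the smallest that 3 against 3 mice can give. In an edgeR fit to protein-coding transcripts alone, P4ha2 had a log2 fold change of 0.65 (unadjusted p 0.0231, adjusted p 0.322), the reverse of the sign of its summed counts.

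A retained-intron transcript of 1997 bases had the largest mean difference among the other transcripts, mostly through DMSO replicate 1. Of these bases 1358 lie outside the exons of the protein-coding transcripts. The edge of the intron it keeps is shown with the intron in lower case and the start of the next exon in capitals.
Intron and exon edge, chr11:54128988-54129077: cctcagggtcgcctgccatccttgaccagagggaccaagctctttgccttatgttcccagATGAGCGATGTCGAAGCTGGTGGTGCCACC
This transcript was at 6.17, 7.07 and 5.36 CPM with LGK-974 and at 18.7, 7.55 and 8.35 CPM with DMSO. The groups did not overlap, but the gap was narrow apart from DMSO replicate 1. An NMD transcript of 1052 bases was at 2.08, 1.88 and 1.91 CPM with LGK-974 and at 3.43, 2.83 and 3.16 CPM with DMSO, again without overlap and with no mouse far from its group. The other long retained-intron transcript, of 3060 bases, was at 3.87, 3.84 and 2.65 CPM with LGK-974 and at 3.16, 5.43 and 7.65 CPM with DMSO. Here DMSO replicate 1 was within the LGK-974 range and the other DMSO mice were above it.

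Set against all genes, the pattern of P4ha2 was uncommon. Of 6856 genes with a mean of at least 50 counts in each class, 58 (0.846%) had protein-coding transcripts higher and other transcripts lower with LGK-974 without overlap. The share on protein-coding transcripts was higher without overlap in 9.51% of these genes and lower without overlap in 2.73%, and without DMSO replicate 1 it was higher without overlap in 11.6%. The difference in share for P4ha2, 22.5 percentage points, ranked 106 of the 6856, whose median was 1.91 points. Without DMSO replicate 1 it was 18.1 points, which ranked 120 beside a median of 0.15 points. DMSO replicate 1 had the lowest P4ha2 share, 17.0%, and also the lowest median share over these genes, 70.7% against 78.6% to 79.8% in the other 5 libraries. The other DMSO mice were at 32.4% and 28.0%, and the lowest LGK-974 mouse was at 42.3%. The part of DMSO replicate 1 in the difference was not tested.

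**Figure D2:**
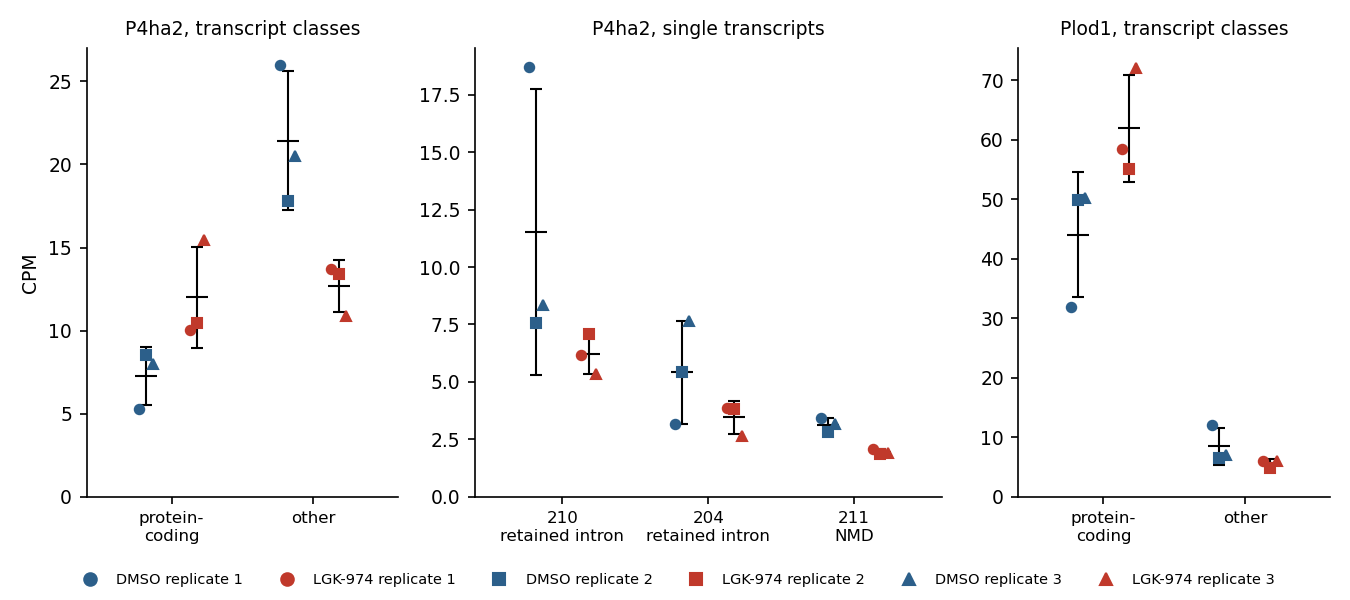
CPM of P4ha2 transcript classes (left), of single P4ha2 transcripts (middle) and of Plod1 transcript classes (right) in each of the 6 libraries, with the mean and SD of each group of 3. Protein-coding P4ha2 transcripts lie at 10.1 to 15.5 CPM with LGK-974 and 5.31 to 8.54 with DMSO, and the other transcripts the opposite way.

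P4ha2 also has a choice between coding exons, both numbered 13. They are shown for the same reason as those of P4ha1, with capitals for the bases that differ in the alignment of the pair.
First exon, chr11:54126238-54126297: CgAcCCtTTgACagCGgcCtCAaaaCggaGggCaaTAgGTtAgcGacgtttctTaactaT
Second exon, chr11:54126346-54126411: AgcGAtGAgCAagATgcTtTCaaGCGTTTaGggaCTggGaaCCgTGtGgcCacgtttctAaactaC
The exons have 60 and 66 bases and share 36, or 54.5% of the longer. The share with the second exon ranged from 10.1% to 67.1% in the LGK-974 mice and from 7.75% to 78.5% in the DMSO mice. It was low in LGK-974 replicate 3 and in DMSO replicate 1, so the spread within each group covered nearly the whole range (exact permutation p 1).

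Both lysyl hydroxylases were higher with LGK-974 without overlap, with the smallest fold changes of the 10 apart from P4ha2. Plod1 (chr4:147909753-147936767, minus strand), which acts mainly on lysines within the helix, was at 64.4, 59.98 and 78.2 CPM with LGK-974 and at 44.0, 56.4 and 57.3 CPM with DMSO. The gap between the nearest mice was small, and the log2 fold change of 0.36 (SE 0.18, 95% interval -0.06 to 0.78) had an unadjusted p of 0.081 and an adjusted p of 0.38 in edgeR. As in P4ha2, protein-coding transcripts of Plod1 were higher without overlap, at 55.1 to 72.1 CPM against 32.0 to 50.3, and the other transcripts lower, at 4.84 to 6.09 CPM against 6.48 to 12.0. Here the other transcripts were a small part of the gene, and the protein-coding share was 91.6% ± 0.783 in the LGK-974 mice and 83.0% ± 8.96 in the DMSO mice (SD, n = 3 per group). Nearly all of the other counts were on a retained-intron transcript of 4097 bases, 2932 of them outside the exons of protein-coding transcripts, which was highest in DMSO replicate 1. The Plod1 difference in share, 8.62 points, ranked 1141 of the 6856 genes, and was 3.46 points without DMSO replicate 1.

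Plod2 (chr9:92542223-92608428, plus strand) acts on the telopeptides at the chain ends, where hydroxylysine leads to the cross-links typical of scar tissue. It was at 32.2, 27.9 and 40.8 CPM with LGK-974 and at 23.4, 24.1 and 25.7 CPM with DMSO. The DMSO mice lay close together and the LGK-974 mice spread upward from just above them. The log2 fold change was 0.46 (SE 0.173, unadjusted p 0.0291, adjusted p 0.368 with edgeR), and the unadjusted p was above 0.05 when LGK-974 replicate 1, LGK-974 replicate 3 or DMSO replicate 2 was left out. On the opposite strand, Plod2 shares 346 exon bases with the annotated gene Gm38391.

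The long form of Plod2, which is known as the telopeptide hydroxylase, differs from the short form by a coding exon of 63 bases. The exon is shown in capitals with the 20 bases on each side of it in the spliced transcript in lower case. It is shown since the share of the long form was measured by the transcript that holds it.
Exon 14, chr9:92601985-92602047 without the flanks: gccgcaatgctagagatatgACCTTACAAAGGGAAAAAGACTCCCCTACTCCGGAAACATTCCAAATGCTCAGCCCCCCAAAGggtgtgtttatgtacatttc
The transcript with this exon held 86.9%, 92.9% and 76.9% of Plod2 counts with LGK-974 and 87.7%, 47.8% and 88.0% with DMSO. The shares of the other mice all lay above that of DMSO replicate 2, which stood alone. The means of 85.6% ± 8.12 and 74.5% ± 23.1 (SD, n = 3 each) differed by 11.04 points, with an exact permutation p of 0.7, so no difference in the choice of form was detectable. The difference rested on DMSO replicate 2 and was -2.31 points without it, against 7.35 to 17.8 points when another mouse was left out.

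The lysyl oxidases were all higher with LGK-974 and none overlapped between the groups. Lox, the founding member of the family and the main cross-linker of fibrillar collagen and elastin (chr18:52516067-52529867, minus strand), was at 284, 173 and 297 CPM with LGK-974 and at 88.7, 150 and 109 CPM with DMSO. LGK-974 replicate 2 was the nearest to the DMSO range. The means were 251 ± 68.0 CPM for LGK-974 and 116 ± 31.0 CPM for DMSO (SD, n = 3 each), which gave a log2 fold change of 1.12 (SE 0.285, 95% interval 0.46 to 1.78). With edgeR the unadjusted p was 0.00471 and the adjusted p 0.368, and DESeq2 gave an adjusted p of 0.0112.

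Loxl2, which acts on collagen IV and is also studied as an intracellular protein, lies at chr14:69609068-69695834 (plus strand). It was at 101, 86.8 and 191 CPM with LGK-974 and at 40.5, 61.5 and 52.3 CPM with DMSO. LGK-974 replicate 3 was far above the other libraries, and the log2 fold change was 1.29 (SE 0.322, 95% interval 0.55 to 2.04) with all mice and 0.94 without it. The unadjusted p with edgeR was 0.00411, the adjusted p 0.368, and the adjusted p with DESeq2 0.00752. It shares 301 exon bases with the antisense gene Gm27177.

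Loxl3, which mice need for the development of the palate and spine (chr6:83034173-83052562, plus strand), was at 40.3, 27.0 and 53.8 CPM with LGK-974 and at 15.7, 21.97 and 24.8 CPM with DMSO. The lowest LGK-974 mouse was just above the highest DMSO mouse. Its log2 fold change was 0.96 (SE 0.280, unadjusted p 0.00964, adjusted p 0.368 with edgeR), and 0.69 with an unadjusted p of 0.0691 with counts scaled from TPM. Loxl3 overlaps Htra2, a mitochondrial protease gene on the opposite strand, over 535 exon bases, and since it is not stated whether the counting used strand, the reads of the pair cannot be told apart there.

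Loxl1, which is needed for the upkeep of elastic fibres (chr9:58287738-58313186, minus strand), had the smallest difference of the lysyl oxidases. It was at 84.0, 84.0 and 115 CPM with LGK-974 and at 43.8, 77.7 and 59.4 CPM with DMSO. DMSO replicate 2 came close to the LGK-974 mice. The log2 fold change was 0.64 (SE 0.246, 95% interval 0.07 to 1.22, unadjusted p 0.0314, adjusted p 0.368 with edgeR), and 0.48 without DMSO replicate 1.

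Serpinh1 (chr7:99345376-99353239, minus strand), which binds only collagen among secreted proteins, was at 246, 214 and 413 CPM with LGK-974 and at 110, 194 and 160 CPM with DMSO. The spread within the LGK-974 group was wide, since replicate 3 lay well above the other LGK-974 mice, and LGK-974 replicate 2 was only just above DMSO replicate 2. The means were 291 ± 107 CPM for LGK-974 and 155 ± 42.2 CPM for DMSO (SD, n = 3 each), which gave a log2 fold change of 0.91 (SE 0.317, 95% interval 0.18 to 1.65, unadjusted p 0.0213, adjusted p 0.368 with edgeR). Without LGK-974 replicate 3 the log2 fold change was 0.64 and the unadjusted p was no longer under 0.05, which also held for P4ha1, Plod2 and Loxl1.

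**Figure D3:**
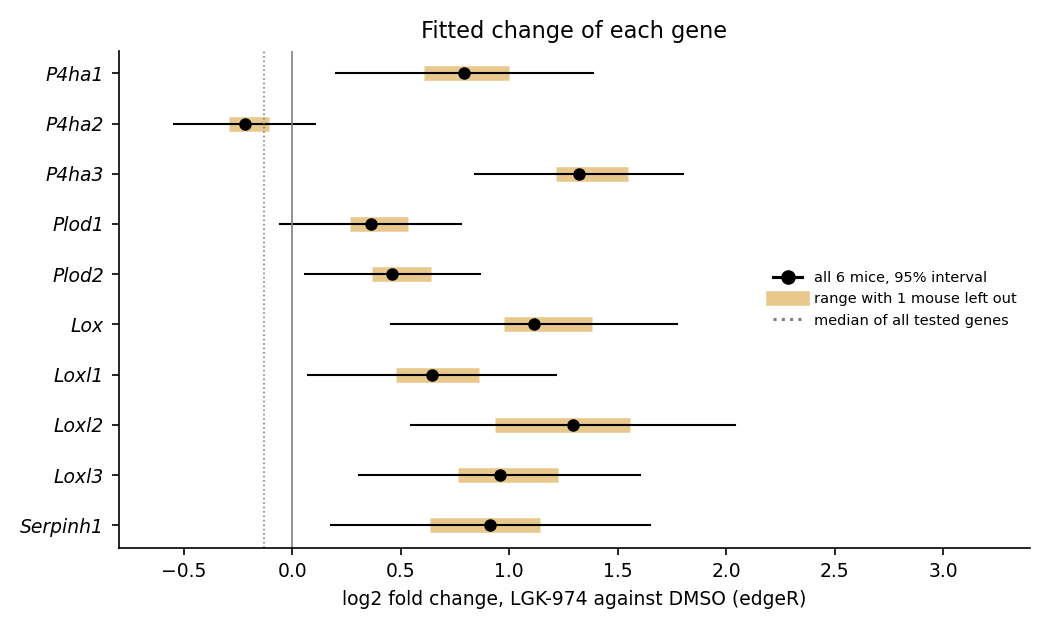
Fitted log2 fold change of each gene, LGK-974 against DMSO, with its 95% interval from edgeR (line) and the range when 1 mouse is left out (shaded). The dotted line is the median of all tested genes, -0.13, and the intervals of P4ha2 and Plod1 reach across 0.

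In the plot of fitted changes most intervals of the 9 higher genes overlap, and the order of genes with overlapping intervals is not a ranking. Only the interval of P4ha3 (0.84 to 1.80) lay wholly above that of another of these genes, Plod1 (-0.06 to 0.78). P4ha3 (1.32) and Loxl2 (1.29) changed places in several alternatives, for example without LGK-974 replicate 1 (1.25 and 1.42). In 14 alternative analyses 9 of the genes stayed above 0 in each, and P4ha2 changed sign only where protein-coding transcripts alone were counted. Without DMSO replicate 1 the log2 fold change was 0.98 for Lox, 1.16 for Loxl2, 0.80 for Loxl3 and 0.73 for Serpinh1. For Plod1, Plod2 and P4ha2 it was 0.26, 0.45 and -0.14 in the same fit.

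Levels of different genes were compared by TPM, which takes transcript length into account. Serpinh1 was the most abundant with a mean of 121 TPM over the 6 libraries (36.6 to 327), followed by Lox at 42.9 TPM. Serpinh1 was above Lox, and Lox above the next gene Loxl1, in 6 of 6 libraries, although P4ha2 (14.1 TPM) was above Lox (12.8 TPM) in DMSO replicate 1. These TPM values sum all transcripts of a gene, so that of P4ha2 is not the level of its protein-coding transcripts. In DMSO replicate 1 its retained-intron transcript of 1997 bases alone was at 6.80 TPM. Loxl1 (25.8 TPM), Plod1 (23.7), Loxl2 (19.5), P4ha2 (19.2) and Loxl3 (15.2) formed a middle group in which neighbours changed places between libraries. P4ha1 (12.1 TPM) was above Plod2 (10.8 TPM) in only 2 of 6 libraries although its mean was higher, and P4ha3 was the lowest at 6.33 TPM, below Plod2 in 6 of 6 libraries.

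The substrates of these enzymes, the fibrillar collagens, were in part higher as well. Of 11 fibrillar collagen genes 6 had an unadjusted p under 0.05 and all 6 were higher without overlap, 0 passed adjustment with edgeR and 3 with DESeq2, and the median log2 fold change was 0.70. The fitted change was below 0 for 3 genes of low level, Col2a1, Col11a1 and Col11a2, none with an unadjusted p under 0.05. Col3a1, the main collagen of early scar, was at 1576 ± 477 CPM in the LGK-974 mice and 717 ± 182 CPM in the DMSO mice (SD, n = 3 per group, log2 fold change 1.14), and Col1a2 (1.07) and Col5a2 (0.82) followed. The genes were therefore also expressed per 1000 CPM of the 11 fibrillar collagens together, a ratio chosen after the values had been seen.

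Relative to fibrillar collagen, 4 of the 10 genes were lower with LGK-974 and 1 was higher without overlap. Since the denominator itself was higher with LGK-974, 60.8% of all tested genes were lower and 0.0697% higher without overlap on this scale, and the median gene was lower by 54.0%. P4ha2 was at 6.46, 7.76 and 4.38 per 1000 collagen CPM with LGK-974 and at 20.2, 10.7 and 13.1 with DMSO, 57.7% lower in the mean and without overlap. This ratio counts all P4ha2 transcripts, of which protein-coding ones held 48.3% in the LGK-974 mice and 25.8% in the DMSO mice. For protein-coding transcripts alone the ratio was not computed, so it does not describe the coding mRNA of P4ha2. Plod1 and Plod2 were lower by 35.6% and 33.1%, again without overlap. Without DMSO replicate 1 P4ha2, Plod1 and Plod2 differed by -47.9%, -32.3% and -24.1%. No share or median of all genes is given for that set of libraries, so these values have no reference beside them. Serpinh1 had the narrowest range of the 10 relative to its level, between 66.8 and 78.9 per 1000 in all 6 mice, with means of 68.4 ± 1.43 and 74.4 ± 4.07 (SD, n = 3 each) that did not overlap. Loxl2 alone was higher without overlap, at 27.5, 28.2 and 31.7 with LGK-974 and 26.2, 25.1 and 24.0 with DMSO, a difference of 16.2%. P4ha1, P4ha3, Lox, Loxl1 and Loxl3 overlapped between the groups. For each of the 5 genes without overlap the exact permutation p was 0.1. This is the smallest possible with 3 against 3 mice, so the test could not pass a threshold of 0.05 even for 1 gene.

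**Figure D4:**
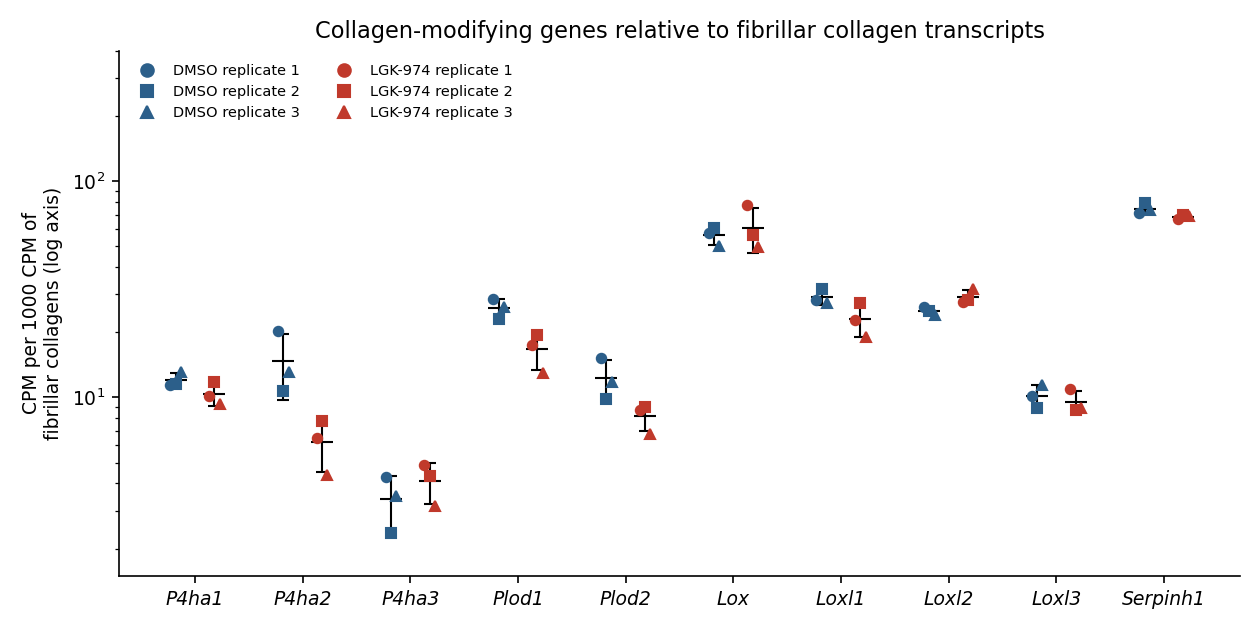
CPM of each of the 10 genes per 1000 CPM of 11 fibrillar collagen genes in each library, with the mean and SD of the 3 LGK-974 and the 3 DMSO mice. P4ha2, Plod1, Plod2 and Serpinh1 are lower and Loxl2 is higher with LGK-974 without overlap, and Serpinh1 stays between 66.8 and 78.9. Each gene is the sum of all its transcripts, which for P4ha2 includes many that are not protein-coding.

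Other genes of collagen processing were in part higher as well. Of 29 tested, 10 had an unadjusted p under 0.05 and were higher, 2 were lower, 12 were higher and 3 lower without overlap, 0 passed adjustment with edgeR and 1 (Sparc) with DESeq2, and the median log2 fold change was 0.41. The smallest p-values were those of P3h1, the prolyl 3-hydroxylase mutated in brittle bone disease (log2 fold change 0.82), P4hb, the β subunit shared by the P4ha proteins (0.75), and Sparc, a collagen-binding matrix protein (0.82). P4hb was at 238, 209 and 276 CPM with LGK-974 and at 106, 170 and 154 CPM with DMSO, without overlap, so its difference had the direction of P4ha1 and P4ha3 and not that of the P4ha2 sum. The 2 lower genes, named after their values were seen, were Adamts3, a procollagen N-propeptidase (-0.67), and Mia2, a cargo factor for export from the endoplasmic reticulum (-0.37). The family members outside the 10, also named afterwards, were higher by 0.55 (Plod3, unadjusted p 0.0496) and 0.57 (Loxl4, unadjusted p 0.0957). Of 16 elastic fibre genes, the other substrates and partners of lysyl oxidases, 7 were higher with an unadjusted p under 0.05 and 0 lower, 0 passed adjustment with edgeR and 5 with DESeq2, with a median of 0.48, led by Emilin1 (0.96), Ltbp2 (1.34) and Mfap5 (0.86).

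The chaperones of the endoplasmic reticulum, in which collagen folds, were higher as a group in count. Of 14 genes 11 had an unadjusted p under 0.05, 12 were higher without overlap, 0 were lower, 0 passed adjustment with edgeR and 4 with DESeq2, and the median log2 fold change was 0.66. Creld2 (0.82), Pdia4 (0.81) and Pdia3 (0.79) had the smallest p-values. P4ha1, Plod2 and Lox are known targets of the hypoxia response, and 20 other genes of that response showed no common direction. Of these, 3 were higher and 2 lower with an unadjusted p under 0.05, and the median was 0.04. The glucose transporter gene Slc2a1 was higher by 0.77 and the hexokinase gene Hk2 by 0.62, while the mTOR inhibitor gene Ddit4 was lower (-0.99). The others of these 5, named after their values were seen, were the oxygen sensor gene Egln3 (0.57) and the mitophagy gene Bnip3 (-0.80).

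**Figure D5:**
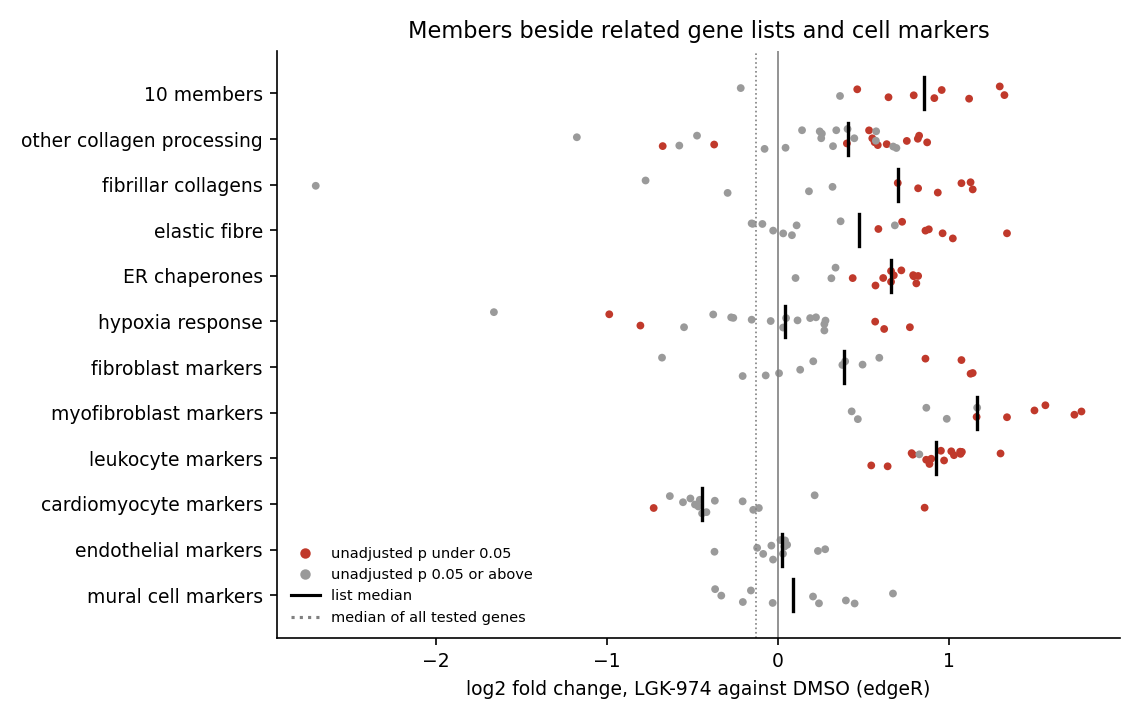
Fitted log2 fold changes (LGK-974 against DMSO, edgeR) of the genes of each list, with the median of each list. The 10 collagen-modifying genes have a median of 0.85, fibrillar collagens 0.70, chaperones of the endoplasmic reticulum 0.66 and hypoxia response genes 0.04.

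Cell type markers differed between the groups too, and in bulk tissue fewer cells of a type and less RNA per cell cannot be told apart. Of 14 fibroblast markers, 4 of which encode Mfap5 or collagens of the lists above, those 4 had an unadjusted p under 0.05, all higher. The summed level of all 14 was 3618 to 5617 CPM with LGK-974 and 1907 to 2948 CPM with DMSO. The 10 markers that no other list held summed to overlapping values, 588 to 1058 and 676 to 1209 CPM, with a median log2 fold change of 0.17 and 0 with an unadjusted p under 0.05. Of 11 myofibroblast markers 6 were higher with an unadjusted p under 0.05, led by Cilp (1.16), Postn (1.56) and Ltbp2 (1.34), and the summed level was 1394 to 3694 against 616 to 867 CPM. Of 16 leukocyte markers 15 were higher with an unadjusted p under 0.05, led by Lyz2 (1.30), Cd53 (1.07) and Adgre1 (0.88), and the summed level was 653 to 847 against 353 to 436 CPM. The sums of the myofibroblast and leukocyte lists did not overlap between the groups, nor did that of the 10 genes together, at 746 to 1289 against 421 to 645 CPM.

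Of 15 cardiomyocyte markers 1 was higher (Actc1, 0.86) and 1 lower (Tcap, -0.73) with an unadjusted p under 0.05 (3 lower without DMSO replicate 1), with a median of -0.44 and overlapping sums of 42809 to 60085 and 48276 to 66787 CPM, so the tissue still held cardiac muscle RNA in all mice. Endothelial (12 genes) and mural (10 genes) markers had 0 with an unadjusted p under 0.05 and medians of 0.02 and 0.09. No marker was at 0 in any library, 0 markers of any list passed adjustment with edgeR, DESeq2 called 4 fibroblast, 5 myofibroblast, 7 leukocyte and 2 cardiomyocyte markers, and the part of cell makeup in the results for the 10 genes was not tested.

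The genes whose profile over the 6 libraries was most like that of P4ha3, the gene with the smallest p of the 10, were Trps1 (Pearson's r of log2 CPM 0.997), Ptprj (0.997), Thoc1 (0.994), Pik3r5 (0.993) and Mphosph6 (0.993), out of 10877 genes searched. With 6 points that share libraries and groups, these values only describe likeness.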

How the data were processed

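The authors depleted ribosomal RNA, made libraries with a capture kit and quantified transcripts with Kallisto on Ensembl transcripts of GRCm38. The authors deposited an estimated count (expected counts that need not be whole) and a TPM value for 118489 transcripts per library. Read trimming, strand use and the version of Kallisto were not given in the sources used here.

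Of these transcripts 98.6% were joined to GENCODE genes of GRCm38. Counts were summed per gene and rounded. The test, run where 3 or more samples had a count of 10 or more, was that of edgeR 4.0.16 (R 4.3.3, quasi-likelihood, TMM, treatment as the only factor, Benjamini-Hochberg adjustment, threshold 0.05). The study's methods name DESeq2, which was run as an alternative (version 1.42.0). Exact permutation tests were two-sided over all splits of the 6 mice, and their smallest p was 0.1. TPM served to compare levels between genes and for 1 alternative. Each library came from 1 mouse. Intervals cover the variation between the 6 libraries, and P4ha3 had the fewest counts of the 10 genes.

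The 10 genes and all lists were chosen with earlier results of these data known. Genes of other lists were named by the 3 smallest p-values. Scripts were tested on simulated data. Sequences were cut from the GENCODE transcript sequences of GRCm38 at positions of the GENCODE annotation, and no sequence of Lox is shown. Tables were handled with pandas 2.3.3 in Python 3.11.15, permutations with SciPy 1.17.1 and plots with matplotlib 3.10.9.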

Additional observations from a re-analysis of the deposited data

How the results depend on the processing

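Over 14 alternatives the number of the 10 genes with an adjusted p under 0.05 was 0 except with DESeq2 (3) and without a filter on low counts (4, with Loxl3 added), and over all genes it was 289 and 1206 in these, 0 to 2 when 1 mouse was left out and 0 in the rest. The number with an unadjusted p under 0.05 was 4 to 8 when 1 mouse was left out, the 4 without LGK-974 replicate 3, 6 with counts scaled from TPM (Plod2 and Loxl3 lost) and 7 with the receptor gene level subtracted (Plod2 lost). Of all genes, 4.16% to 23.2% had such a p in either direction when 1 mouse was left out. The share was 9.8% with counts scaled from TPM and 13.7% with the receptor gene level subtracted. Among fold changes only that of P4ha2 reversed, to 0.65 with protein-coding transcripts, an alternative chosen after seeing the data, as were the split of fibroblast markers and the shares and collagen ratios without DMSO replicate 1. With the replicate number as a block, 8 of the 10 had an unadjusted p under 0.05 and 0 an adjusted one, and P4ha3 had a log2 fold change of 1.31 (adjusted p 0.115 with edgeR). The block moved the genes with an unadjusted p under 0.05 from 2699 to 3312. The block lowered the lowest adjusted p over all genes with edgeR from 0.368 to 0.0535. Deviations of same-numbered mice from their group means correlated at 0.487, -0.0616 and 0.315. Their mean was 0.247, against -0.128 for mice of different numbers. The numbers were not taken as pairs in the main fit, and whether they mark pairs was not tested. The median of all tested genes was -0.75 with DESeq2 and -0.55 without the filter, both over 34257 genes, against -0.13 over the filtered genes with TMM, and the median of the 10 was 0.88 and 0.97.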
